A study of Mus musculus with 37 samples.

Results

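The RNA bound to tagged ribosomes of dopamine neurons was compared here with that of GABA neurons in the ventral midbrain of young mice, over 20 of the 37 libraries of the series. All 10 libraries labelled young DAT;NuTRAP (5 females and 5 males, 8 to 10.5 months) were set against all 10 labelled young VGAT;NuTRAP (6 females and 4 males, 7 to 9 months), with 1 library per mouse. Both models carry the NuTRAP allele, a Cre-dependent cassette at the Rosa26 locus that tags the ribosomal protein L10a with GFP. DAT;NuTRAP mice came from DAT-IRES-Cre males carrying Cre on both alleles, in which the dopamine transporter gene Slc6a3 drives Cre, and VGAT;NuTRAP mice from a Vgat-ires-cre line, in which the vesicular GABA transporter gene Slc32a1 does. The NuTRAP females were homozygous. Each bilateral midbrain piece holding the substantia nigra pars compacta and the ventral tegmental area was homogenised, and ribosomes were pulled down with an antibody against GFP. The design has limits that hold for all values below. Cre acts at any time of life, so the tag marks every cell that has expressed Slc6a3 or Slc32a1 and its descendants. The pulled-down fraction also holds some RNA of untagged cells, and the bulk input fraction was not analysed here. Because each model is its own cross, cell type and cross cannot be told apart.

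Dopamine neurons make dopamine from tyrosine in a pair of steps, by tyrosine hydroxylase (Th) and aromatic amino acid decarboxylase (Ddc), load it into vesicles with the transporter Slc18a2 and take it back up with Slc6a3. They fire slowly and regularly, have very long and branched axons, and are the cells lost in Parkinson disease. GABA neurons of the ventral midbrain make GABA from glutamate with the decarboxylases Gad1 and Gad2 and load it with Slc32a1. Many are fast-firing projection neurons of the substantia nigra pars reticulata, and others in the ventral tegmental area inhibit the dopamine neurons beside them. A translatome is the set of RNAs on ribosomes. In such pooled cells, fewer cells of a type and less RNA per cell cannot be told apart.

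Each library held 17047101 to 38235015 counted reads. The labels split the libraries into a first batch (4 DAT;NuTRAP and 4 VGAT;NuTRAP) and a second batch (6 and 6), without saying what was batched, and batch was a term of the model. The transcripts that mark sex matched the labels in 20 of 20 libraries. On the first principal component of the 500 most variable genes, which held 71.0% of the variance, DAT;NuTRAP libraries scored 12.7 to 33.2 and VGAT;NuTRAP libraries -27.2 to -18.1. The second component, with 9.31%, parted the batches. Second-batch DAT;NuTRAP libraries lay farther from the VGAT;NuTRAP libraries (21.9 to 33.2) than first-batch ones (12.7 to 19.1), and 3.23% to 12.0% of the genes tested had no read in them, against 0.489% to 0.694% in first-batch DAT;NuTRAP and 0.0463% to 1.3% in VGAT;NuTRAP libraries. Young female DAT;NuTRAP 5 was the library at 12.0%. Levels are given below as CPM (counts scaled to a common library total with TMM factors), as the lowest, the median and the highest of the 10 libraries, and differences as log2 of DAT;NuTRAP over VGAT;NuTRAP ± SE from edgeR's quasi-likelihood test on 15127 genes. Summed levels of gene lists are the exception, as their counts were scaled to the library total without TMM factors. A gene is called higher in a cell type at an adjusted p below 0.05.

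The genes of the labels separated the models in every library. Slc6a3, the dopamine transporter, was at 2713, 3066 and 4241 CPM in DAT;NuTRAP and 246, 738 and 1228 CPM in VGAT;NuTRAP libraries (2.14 ± 0.18, adjusted p = 2.38e-09). Th, the rate-limiting enzyme of dopamine synthesis, was at 2344, 3752 and 4455 CPM and 145, 343 and 534 CPM (3.36 ± 0.19, adjusted p = 2.75e-12). For both genes the lowest DAT;NuTRAP library lay above the highest VGAT;NuTRAP library. Gad1, the larger of the glutamate decarboxylases, gave 53.8, 128 and 252 CPM in DAT;NuTRAP and 1531, 1872 and 2253 CPM in VGAT;NuTRAP (-3.85 ± 0.17, adjusted p = 7.06e-14), and Gad2, its smaller partner at synapses, gave 55.3, 135 and 269 CPM and 1246, 1412 and 1678 CPM (-3.39 ± 0.19, adjusted p = 3.01e-12). Slc32a1, which fills vesicles with GABA, was at 63.4, 96.1 and 136 CPM and 229, 432 and 496 CPM (-2.14 ± 0.12, adjusted p = 7.72e-13). The groups did not overlap for these genes either, although young male VGAT;NuTRAP 1, at 229 CPM of Slc32a1, lay well below the other VGAT;NuTRAP libraries. Inside the models the batches differed, as the plot of the markers by library shows. In second-batch DAT;NuTRAP libraries Gad1 and Gad2 were lower and Th was mostly higher. But Slc6a3 was lower there too, at 2713 to 3104 CPM against 3264.5 to 4241 CPM in the first batch. Slc32a1 was not lower there, at 85.6 to 136 CPM against 63.4 to 107 CPM.

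**Figure D1:**
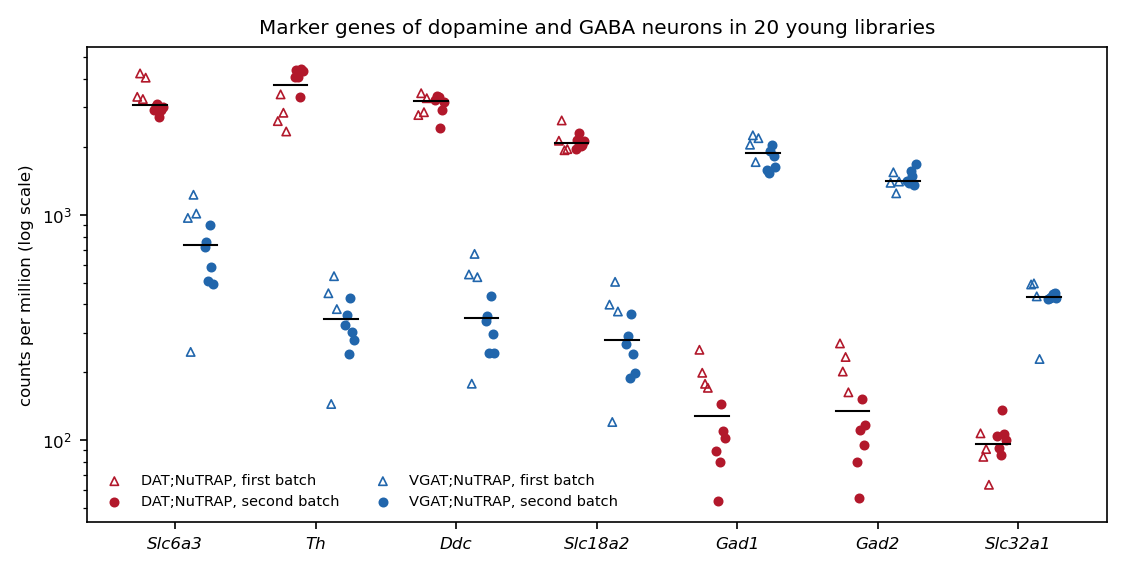
Levels of 7 marker genes in the 20 young libraries (CPM on a log axis), DAT;NuTRAP in red beside VGAT;NuTRAP in blue, with a mark per library (open triangles for the first batch, filled circles for the second) and the median as a line. Slc6a3 in DAT;NuTRAP starts at 2713 CPM, above the highest VGAT;NuTRAP library at 1228 CPM, and Gad1 in VGAT;NuTRAP starts at 1531 CPM, above the highest DAT;NuTRAP library at 252 CPM.

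Neither model was free of the other's genes. As a percent of the mean DAT;NuTRAP level, VGAT;NuTRAP libraries held 9.59% for Th, 10.1% for Gch1, 12.4% for Ddc, 13.9% for Slc18a2 and 22.8% for Slc6a3. The same VGAT;NuTRAP mouse, young female 2, was lowest for Slc6a3, Th, Ddc and Slc18a2, and young female 3 was highest for all of them. The ratio of Slc6a3 to Th was 1.7 to 2.65 (median 2.1) in VGAT;NuTRAP and 0.653 to 1.73 (median 0.786) in DAT;NuTRAP libraries. In DAT;NuTRAP this ratio split by batch, with 1.15 to 1.73 in the first and 0.653 to 0.813 in the second. In the other direction, DAT;NuTRAP libraries held 7.37% of the VGAT;NuTRAP mean for Gad1, 10.2% for Gad2 and 22.8% for Slc32a1. Whether these reads came from untagged cells or from neurons that use both transmitters was not tested. Per length of exon, the scale on which genes can be set beside each other, Slc6a3 ranked 8 and Th ranked 14 of 13256 coding genes in DAT;NuTRAP, at 648 and 504 RPKM (counts per kilobase of exon, scaled like CPM). Gad2 ranked 65 and Gad1 ranked 92 in VGAT;NuTRAP, at 222 and 180 RPKM. Slc18a2 ranked 40 and Ddc ranked 72 in DAT;NuTRAP and Slc32a1 ranked 290 in VGAT;NuTRAP, so the ranks of the dopamine and the GABA genes overlapped.

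The sequences before these genes are shown because the Slc6a3 and Slc32a1 loci drive Cre and because Th and Gad1 mark the cells. They run from 250 bases before to 50 bases after the start of the canonical transcript in GENCODE M39, on GRCm39, the build the reads were aligned to, 5′ to 3′ on the gene's strand. Th lies at chr7:142453702-142454001 on the minus strand, and the capitals mark TGACGTCA, the cyclic AMP response element, whose first base is 26 bases before the start. Slc6a3 lies at chr13:73684616-73684915, Gad1 at chr2:70391353-70391652 and Slc32a1 at chr2:158452355-158452654, all on the plus strand.
Th: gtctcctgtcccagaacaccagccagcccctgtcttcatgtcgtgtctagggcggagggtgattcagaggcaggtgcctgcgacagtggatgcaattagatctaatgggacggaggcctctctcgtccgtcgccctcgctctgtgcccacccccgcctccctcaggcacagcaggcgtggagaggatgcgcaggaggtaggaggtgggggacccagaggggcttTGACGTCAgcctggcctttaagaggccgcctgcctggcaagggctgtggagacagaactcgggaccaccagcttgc
Slc6a3: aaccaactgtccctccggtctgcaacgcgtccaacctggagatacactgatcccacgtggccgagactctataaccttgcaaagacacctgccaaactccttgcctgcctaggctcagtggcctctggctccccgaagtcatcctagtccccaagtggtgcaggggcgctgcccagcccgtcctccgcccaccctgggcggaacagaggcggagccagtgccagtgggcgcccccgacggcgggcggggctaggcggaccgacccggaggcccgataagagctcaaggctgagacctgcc
Gad1: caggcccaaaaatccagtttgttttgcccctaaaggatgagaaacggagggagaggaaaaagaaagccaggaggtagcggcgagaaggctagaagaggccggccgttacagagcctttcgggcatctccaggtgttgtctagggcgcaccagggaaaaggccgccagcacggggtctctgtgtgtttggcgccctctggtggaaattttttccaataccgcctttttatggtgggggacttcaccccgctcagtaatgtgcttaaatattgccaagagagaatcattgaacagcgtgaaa
Slc32a1: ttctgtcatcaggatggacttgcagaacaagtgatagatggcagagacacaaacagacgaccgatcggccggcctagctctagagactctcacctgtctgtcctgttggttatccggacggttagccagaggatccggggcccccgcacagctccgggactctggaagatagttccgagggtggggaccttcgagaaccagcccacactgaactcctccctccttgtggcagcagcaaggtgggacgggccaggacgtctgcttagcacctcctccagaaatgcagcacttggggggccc
Both strands were searched for TATAAA (the TATA box), TGACGTCA, AAAGGTCA (the NGFI-B response element of the NR4A family), TGTTTAC (a forkhead motif), TAATCC (bound by PITX and OTX proteins), the homeodomain motif TAATTA, and the binding letters of GATA factors, AGATAA, none of which holds another, although matches of TAATTA and TAATCC can share bases. Slc6a3, Gad1 and Slc32a1 held none of these letters in this window. TGACGTCA stood in 3.01% of the 15086 promoters of tested genes, in 2.0% of the 1297 of genes at least 2-fold higher in DAT;NuTRAP and in 2.88% of the 1144 of genes at least 2-fold higher in VGAT;NuTRAP. AAAGGTCA stood in 1.09%, 1.7% and 1.14%, TATAAA in 8.35%, 10.3% and 8.39%, TGTTTAC in 2.67%, 2.47% and 1.92%, TAATCC in 6.83%, 7.17% and 5.42%, TAATTA in 3.31%, 3.24% and 3.76%, and AGATAA in 7.85%, 8.79% and 8.04%, in the same order. The share of promoters with an observed to expected CpG ratio over 0.6 was 60.6% for all, 40.3% for the DAT;NuTRAP genes and 50.3% for the VGAT;NuTRAP genes. Slc6a3 (0.62) and Gad1 (0.649) were above that ratio and Th (0.462) and Slc32a1 (0.492) below it.

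The cell types differed across much of the genome. Of 15127 genes, 8180 (54.1%) were called, 4080 (27%) higher in DAT;NuTRAP and 4100 (27.1%) higher in VGAT;NuTRAP, with a median log2 difference over all genes of 0.0058. Most of these differences were small, since 5731 of the called genes (70.1%) were under 2-fold. At least 2-fold, 1300 genes (8.59%) were higher in DAT;NuTRAP and 1149 (7.6%) in VGAT;NuTRAP. At 4-fold the pooled counts were 296 and 355, and at 8-fold 44 and 108. The 2-fold counts were 942 and 687 by the first batch alone and 1479 and 1628 by the second. Which side held more of them thus depended on the batch, and the 4-fold and 8-fold counts were not split by batch. The groups did not overlap at all for 2195 genes (14.5% of those tested), 948 higher in DAT;NuTRAP and 1247 higher in VGAT;NuTRAP. The plot of all genes shows both arms.

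**Figure D2:**
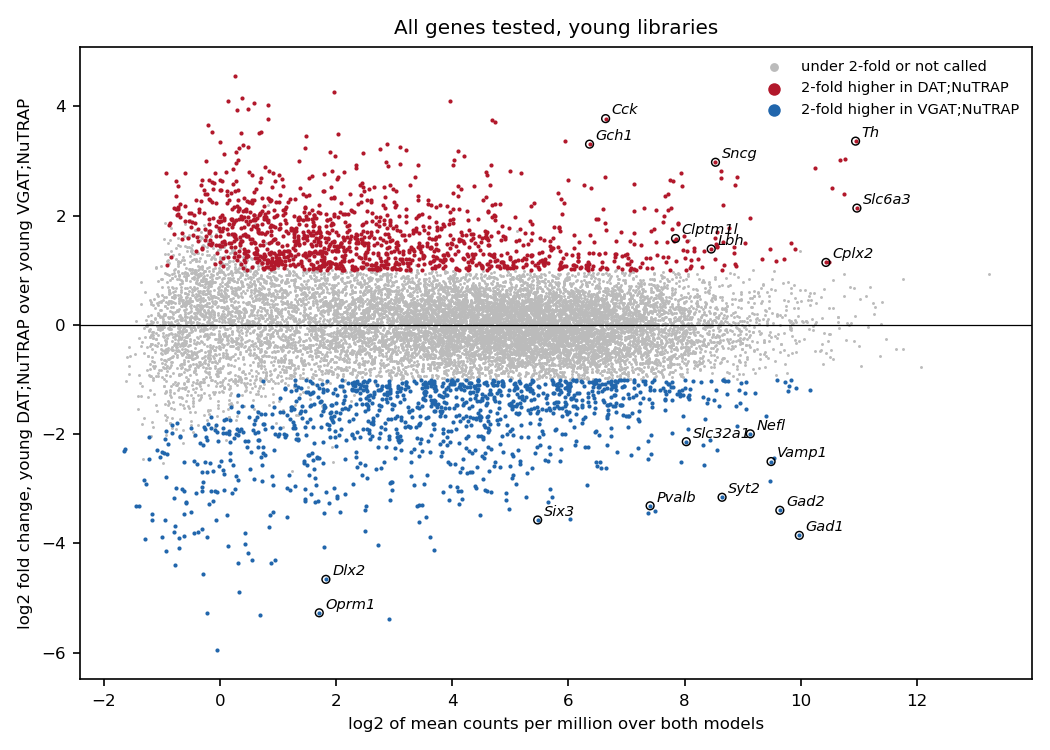
Log2 difference of DAT;NuTRAP over VGAT;NuTRAP against mean level for the 15127 genes tested, with a point per gene and genes past an adjusted p of 0.05 and at least 2-fold in red (higher in DAT;NuTRAP) or blue (higher in VGAT;NuTRAP). The mean level is on a log2 scale of CPM over both models. There are 1300 red and 1149 blue genes, and the named genes include Th at 3.36 and Gad1 at -3.85.

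The 20 genes with the smallest p on the dopamine side held Gch1 and Drd2, which serve dopamine itself, beside genes of the terminal, the axon and the membrane. Gch1, which makes the cofactor of Th, was at 116, 154 and 166 CPM in DAT;NuTRAP and 7.28, 16.1 and 20.8 CPM in VGAT;NuTRAP libraries (3.31 ± 0.13, adjusted p = 4.17e-15). Drd2, the receptor through which dopamine neurons sense their own transmitter, was at 495, 701 and 842 CPM and 49, 105 and 132 CPM (2.695 ± 0.13). Neither overlapped between the models. Others in this set act at the presynaptic terminal or in the growing axon. Sv2c, a vesicle protein, differed by 1.95 ± 0.09, Syt17, a synaptotagmin, by 1.88 ± 0.08, Cplx2, a complexin that clamps vesicle fusion, by 1.14 ± 0.05 and Gap43, a growth cone protein, by 1.40 ± 0.08. Scn3b (1.36 ± 0.07), a sodium channel beta subunit, Gsg1l (2.14 ± 0.09), an auxiliary subunit of AMPA receptors, Il13ra1 (2.40 ± 0.13), a receptor chain for interleukin 13, and Sdc2 (1.52 ± 0.08), a heparan sulfate proteoglycan, were also among the 20. So were Lbh (1.39 ± 0.05), Fam210b (2.11 ± 0.08), Clptm1l (1.58 ± 0.07), Tpd52 (1.11 ± 0.05), Crip2 (2.18 ± 0.11), Pea15a (1.07 ± 0.05), Pbdc1 (1.71 ± 0.09) and Nnat (1.73 ± 0.09). Since these 18 genes were chosen by their p in the same libraries, the separation of the models in them is a description. Within batches their differences ran from 1.00 for Pea15a in the first to 3.36 for Gch1 in the second.

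By size of the difference, the dopamine side was led mostly by genes of lower level, with Th and Gch1 among the 10. Among genes with a mean of at least 5 CPM in the higher cell type, Cck, the precursor of the peptide cholecystokinin, was at 53.9, 215 and 272 CPM in DAT;NuTRAP and 5.83, 13.5 and 16.3 CPM in VGAT;NuTRAP libraries (3.77 ± 0.20). Lpl, lipoprotein lipase, was at 12.6, 51.7 and 64.9 CPM and 1.99, 3.09 and 6.39 CPM (3.76 ± 0.24), and Anxa1, annexin A1, which marks a ventral subtype of nigral dopamine neurons, at 82.7, 99.8 and 187 CPM and 4.99, 11.6 and 17.2 CPM (3.36 ± 0.24). Cck spread widely in DAT;NuTRAP libraries but its lowest, 53.9 CPM, still exceeded every VGAT;NuTRAP library. Vill, a member of the villin family, differed by 3.72 ± 0.22, Sult5a1, a sulfotransferase, by 4.26 ± 0.42, Elovl3, a fatty acid elongase, by 3.49 ± 0.47, Ndc80, a kinetochore protein, by 3.45 ± 0.42 and Lmcd1 by 3.31 ± 0.26. Sult5a1 and Elovl3 each had 1 VGAT;NuTRAP library with no read, so the fitted size depends on how zeros are handled.

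The 20 genes with the smallest p on the GABA side held the neurofilament chains, ion channel genes and Vamp1. Nefl, the light neurofilament chain, had the smallest p of all genes and was at 184, 226 and 281 CPM in DAT;NuTRAP and 636, 929 and 1053 CPM in VGAT;NuTRAP (-1.99 ± 0.07, adjusted p = 2.47e-15). Nefm, the middle chain, was at 169, 231 and 295 CPM and 836, 1302 and 1491 CPM (-2.43 ± 0.11) and Nefh, the heavy chain, at 183, 208 and 229.7 CPM and 478, 757 and 958 CPM (-1.86 ± 0.09). No library of either model overlapped the other for the 3 chains. Vamp1, the vesicle SNARE of fast synapses, was at 129, 216 and 319 CPM and 729.9, 1235 and 1522 CPM (-2.50 ± 0.11). Kcnc1, the Kv3.1 potassium channel that lets neurons fire at high rates, was at 71.4, 130.3 and 155 CPM and 488, 613 and 725 CPM (-2.29 ± 0.11), and Scn8a, the sodium channel of the axon initial segment and nodes, at 85.6, 118 and 143 CPM and 326, 424 and 505 CPM (-1.90 ± 0.09). Hapln4, a link protein of the extracellular net around such neurons, differed by -2.46 ± 0.12. Gucy1a1 (-2.61 ± 0.12), a subunit of the nitric oxide receptor, and Nat8l (-1.67 ± 0.07), which makes N-acetylaspartate, were in the same set. Also in it were Pnkd (-1.32 ± 0.06), Tafa2 (-2.49 ± 0.12), Patj (-1.70 ± 0.08), Epb41l3 (-2.20 ± 0.11), Lynx1 (-1.25 ± 0.06), a brake on nicotinic receptors, Oip5os1 (-1.97 ± 0.10), a long non-coding RNA, Lgi2 (-1.49 ± 0.07) and Fgf12 (-1.35 ± 0.07), an intracellular partner of sodium channels. The plot of 36 of the 40 genes, which were chosen by p in these libraries, shows their level in each library.

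**Figure D3:**
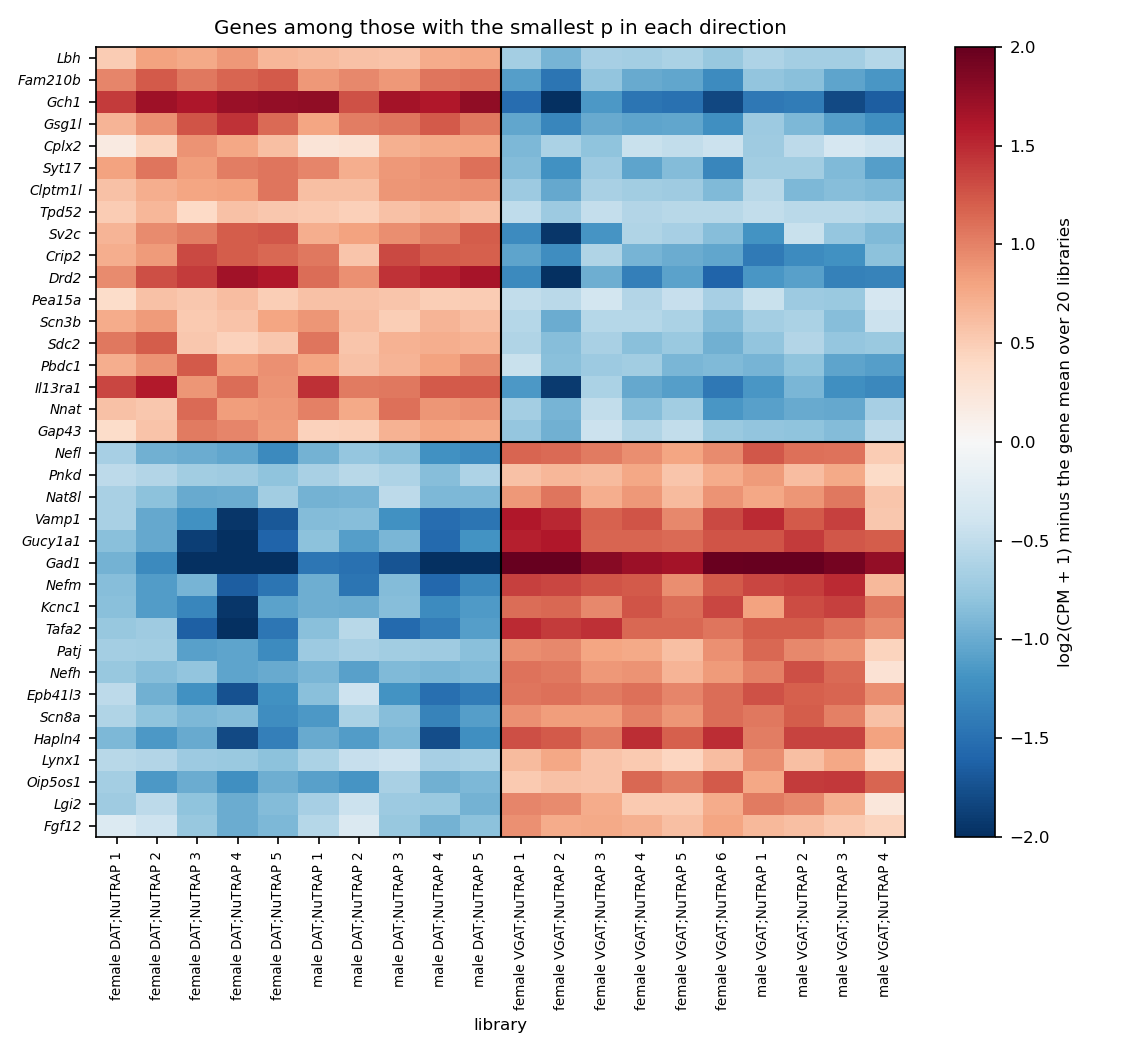
Levels of 18 of the 20 genes with the smallest p in each direction (rows) in the 20 young libraries (columns), as log2(CPM + 1) minus the gene's mean over the libraries, red above and blue below it, with colours ending at 2 and -2. The upper 18 genes are red in the 10 DAT;NuTRAP and blue in the 10 VGAT;NuTRAP libraries and the lower 18 the reverse, with the deepest colours for Gch1 and Gad1.

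The widest differences toward GABA neurons were mostly in patterning factors, receptors and channels at low levels in the DAT;NuTRAP libraries. Six3, a homeobox factor of forebrain and anterior midbrain, was at 3.79, 6.14 and 12.9 CPM in DAT;NuTRAP and 56.6, 79.1 and 118 CPM in VGAT;NuTRAP (-3.57 ± 0.19, adjusted p = 5.71e-13), and Six3os1, the transcript antisense to it, at 0, 1.26 and 3.11 CPM and 15.6, 24 and 35.7 CPM (-4.12 ± 0.30). Reads of these overlapping genes are told apart only if counting used the strand, which is not stated. Oprm1, the mu opioid receptor through which opioids silence midbrain GABA neurons, was at 0, 0 and 1.2 CPM and 2.2, 6.85 and 9.47 CPM (adjusted p = 1.9e-05). It had no read in any of the 6 DAT;NuTRAP libraries of the second batch, so the fitted -5.27 ± 0.86 depends on the handling of zeros, and the first batch alone gave -2.14. Zeros also bear on the fitted sizes of Sp9 (-3.89 ± 0.46), Dlx2 (-4.66 ± 1.00) and Dlx6 (-3.77 ± 0.82), factors known from forebrain GABA neurons, Trpc5 (-3.60 ± 0.63), a cation channel, Lingo4 (-4.03 ± 0.54) and Fbxo40 (-4.06 ± 0.64), which had no read in 2, 7, 3, 3, 2 and 4 DAT;NuTRAP libraries in that order. Trpc5 gave -1.49 in the first and -5.27 in the second batch and Lingo4 -2.37 and -5.28, so their size also depended on the batch. Dlx2 and Dlx6 were uneven among VGAT;NuTRAP mice, from 0.184 to 22.4 CPM and from 0.299 to 23 CPM, and their groups overlapped.

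Genes that make, load and recapture dopamine were higher together in DAT;NuTRAP. All 9 genes for synthesis, loading and reuptake were called higher in DAT;NuTRAP, against 27% of all genes, with a median log2 of 2.14 against 0.0058 over all genes, 2.11 in the first batch and 2.15 in the second. Their summed level was 11273, 12429 and 13952 CPM in DAT;NuTRAP and 906, 1911 and 3166 CPM in VGAT;NuTRAP libraries. Ddc was at 2435, 3200 and 3465 CPM and 178, 348 and 671 CPM (3.04 ± 0.18), and Slc18a2, which loads vesicles with dopamine, at 1935, 2081 and 2624 CPM and 120.4, 279 and 504 CPM (2.87 ± 0.18). Neither overlapped. Pcbd1, which recycles the cofactor of Th, differed less (1.43 ± 0.09). Of the 6 enzymes that break down monoamines, 4 were higher in DAT;NuTRAP and 1 in VGAT;NuTRAP. Aldh1a1, which clears the aldehyde made from dopamine and marks ventral nigral neurons, was at 2113, 2976 and 3426 CPM and 189, 347 and 638 CPM (3.02 ± 0.18), and Maoa, a monoamine oxidase, differed by 1.51 ± 0.10.

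Dopamine neuron transcription factors followed, with 14 of 16 called higher in DAT;NuTRAP, none in VGAT;NuTRAP and a median of 1.66 (1.73 and 1.74 in the first and second batch). En1, an engrailed factor needed for their survival, was at 152, 422 and 461 CPM in DAT;NuTRAP and 28.9, 63.6 and 79 CPM in VGAT;NuTRAP (2.64 ± 0.17), and Satb1, a chromatin organiser, at 193, 202 and 246 CPM and 41.3, 70.4 and 79.2 CPM (1.68 ± 0.09). Pitx3, which specifies nigral dopamine neurons, was uneven, at 2.63, 50.9 and 61.3 CPM and 0.157, 6.28 and 9.38 CPM (2.80 ± 0.40, adjusted p = 4.2e-06), with an overlap between models. Nr4a2, the nuclear receptor that switches on Th, did not overlap (169, 226 and 284 and 21.7, 54.1 and 86.7 CPM, 2.08 ± 0.16). Otx2, a factor of ventral tegmental neurons, was at 1.37, 7.86 and 12.3 and 5.31, 8.37 and 16.1 CPM and did not pass (-0.20 ± 0.26, adjusted p = 0.534). Among markers of dopamine neuron subtypes, 12 of 16 tested were higher in DAT;NuTRAP and none in VGAT;NuTRAP (median 2.26). Both nigral and tegmental markers were among them. Calb1, the calcium buffer of the more resistant tegmental cells, was at 221, 295 and 399 and 43.3, 73.3 and 102 CPM (2.10 ± 0.13), Grp, gastrin-releasing peptide, at 16.3, 46.4 and 56.6 and 3.96, 5.27 and 8.09 CPM (2.93 ± 0.18) and the orphan transporter Slc10a4 at 544, 701 and 779 and 40.6, 97 and 154 CPM (2.81 ± 0.17). Slc17a6, the vesicular glutamate transporter that some dopamine neurons use, varied from 40.3 to 226 CPM in DAT;NuTRAP and from 34 to 162 CPM in VGAT;NuTRAP and did not pass (adjusted p = 0.261).

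GABA synthesis and transport gave 6 of 8 genes higher in VGAT;NuTRAP, against 27.1% of all genes, and 1 higher in DAT;NuTRAP (median -0.877). The exception was Slc6a11, a GABA transporter known mainly from astrocytes, at 86.4, 130.3 and 187 CPM in DAT;NuTRAP and 52, 64.9 and 83.2 CPM in VGAT;NuTRAP (0.96 ± 0.11). Abat, which breaks GABA down, differed by -0.87 ± 0.07. Of 32 transcription factors of GABA neurons tested, 25 were higher in VGAT;NuTRAP, 2 in DAT;NuTRAP and the median was -2.54 (-2.39 and -2.95 in the batches). Gata3, a selector of midbrain GABA fate, was at 2.87, 4.98 and 7.33 CPM and 16.8, 38.1 and 80.3 CPM (-3.02 ± 0.22), Lhx1 at 3.35, 5.93 and 9.62 and 30.3, 36.9 and 40.4 CPM (-2.60 ± 0.16) and Pax5 at 2.35, 7.27 and 14.4 and 39.9, 69.7 and 94.2 CPM (-3.14 ± 0.25). These 3 did not overlap. Both that were higher in DAT;NuTRAP are known outside GABA neurons, Foxp2 (0.57 ± 0.10) from many projection neurons and Nkx6-2 (1.72 ± 0.51, with 0.30 in the first and 2.59 in the second batch) from oligodendrocytes. Markers of GABA subtypes split, with 12 of 20 higher in VGAT;NuTRAP and 4 in DAT;NuTRAP when pooled. The first batch alone gave 5 and 4 (median -0.772) and the second 12 and 3 (median -1.16). Calls over all genes were also fewer in the first batch (16.5% in VGAT;NuTRAP and 16.4% in DAT;NuTRAP) than in the second (26.6% and 25.6%). The difference between batches was called for 3 of the 20 markers, against 26.8% of all genes. Pvalb, the calcium buffer of fast-spiking neurons, was at 7.62, 32.4 and 45.9 CPM and 177, 309.8 and 438 CPM (-3.31 ± 0.25), and Sst, somatostatin, at 15.7, 40.3 and 65.2 and 52.3, 189 and 296 CPM (-2.04 ± 0.24, with overlap). The 4 on the dopamine side were Cck, Calb2 (1.42 ± 0.08), Ndnf (2.14 ± 0.15) and Crh (1.63 ± 0.48, with 2.62 in the first and 1.03 in the second batch), of which Cck and Calb2 are also known from midbrain dopamine neurons.

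Receptor genes differed by family and by member. Here and for the lists that follow, counts stand against 27% of all genes higher in DAT;NuTRAP and 27.1% in VGAT;NuTRAP. Of 14 GABA-A receptor subunits tested, 11 were higher in VGAT;NuTRAP and 1 in DAT;NuTRAP (median -1.05, with -0.6 in the first and -1.22 in the second batch). Gabrb2, a beta subunit, was at 9.78, 20.4 and 94.7 CPM in DAT;NuTRAP and 229.9, 317 and 397 CPM in VGAT;NuTRAP (-3.41 ± 0.31, with -2.03 in the first and -4.34 in the second batch). Gabra4 alone went toward dopamine neurons, at 52.8, 75 and 115 and 27.3, 38.6 and 44.7 CPM (1.05 ± 0.12). Among nicotinic and muscarinic receptors, 6 of 14 were higher in DAT;NuTRAP and 4 in VGAT;NuTRAP, with a median of 0.299 in the first and -0.329 in the second batch. Chrna6, the subunit typical of dopamine neurons, was at 767, 829.8 and 894 CPM and 62.6, 133 and 214 CPM (2.71 ± 0.16), with Chrnb3 (2.54 ± 0.15) and Chrna4 (1.50 ± 0.08), which assemble with it. The VGAT;NuTRAP side held the muscarinic receptors Chrm2 (1.59, 11.3 and 31.6 and 73.6, 90.2 and 132 CPM, -3.15 ± 0.32, with -2.16 in the first and -3.85 in the second batch) and Chrm3 (-1.75 ± 0.22) and the nicotinic subunit Chrna2 (-3.28 ± 0.57). Receptors for serotonin, noradrenaline and histamine leaned to GABA neurons, with 15 of 21 higher in VGAT;NuTRAP and 2 in DAT;NuTRAP (median -1.73, with -1.13 and -1.93 in the batches). Htr2c, a serotonin receptor, was at 31.5, 53.5 and 96.1 and 239, 282 and 377 CPM (-2.36 ± 0.14) and Htr1a, an inhibitory one, at 3.56, 8.66 and 11.3 and 31.9, 46.7 and 55 CPM (-2.50 ± 0.17). Metabotropic glutamate receptors gave 6 of 7 higher in VGAT;NuTRAP and none in DAT;NuTRAP (median -1.43, with -0.809 and -1.85 in the batches), among them Grm5 (-1.43 ± 0.13), and ionotropic ones 12 of 18 against 3.

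Opioid and peptide signalling split by receptor. Oprk1, the kappa receptor that inhibits dopamine neurons, was at 53.3, 78.5 and 135 CPM in DAT;NuTRAP and 18.4, 25.9 and 29.3 CPM in VGAT;NuTRAP (1.79 ± 0.14), while Oprd1, the delta receptor, was at 0, 1.57 and 5.56 and 9.26, 12.3 and 20.3 CPM (-2.90 ± 0.58, with -1.57 in the first and -3.84 in the second batch). Neither overlapped, and Oprd1 had no read in 2 DAT;NuTRAP libraries. The opioid precursors Pnoc (-2.58 ± 0.18) and Penk (-1.47 ± 0.15) were higher in VGAT;NuTRAP. Ntsr1, the neurotensin receptor, was at 298, 392 and 439.9 CPM in DAT;NuTRAP and 18.7, 60.6 and 98.8 CPM in VGAT;NuTRAP (2.63 ± 0.17), with Mc3r (2.56 ± 0.33), a melanocortin receptor, and Tacr3 (1.94 ± 0.19), a tachykinin receptor, on the same side. The somatostatin receptor Sstr1 lay on the other (-2.54 ± 0.28, with -1.37 in the first and -3.36 in the second batch). Over 39 peptide and hormone receptors, 16 were higher in VGAT;NuTRAP and 8 in DAT;NuTRAP. The first batch alone gave 7 and 9 (median -0.0787) and the second 19 and 6 (median -0.826). Fewer of all genes were called in the first batch as well. The difference between batches was called for 7 of the 39 receptors, against 26.8% of all genes. Ret, the receptor for GDNF family factors that keep dopamine neurons alive, was at 2545, 2730 and 4020 and 267, 542 and 795 CPM (2.40 ± 0.14), and Ntn1, the axon guidance cue netrin 1, at 261, 351 and 425 and 30.4, 70.6 and 93.4 CPM (2.40 ± 0.15).

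Potassium channel genes were more often higher in VGAT;NuTRAP. Of 76 potassium channel genes, 46 were higher in VGAT;NuTRAP and 11 in DAT;NuTRAP (median -0.85, with -0.556 and -1.04 in the batches), and of the 18 that form Kv1 to Kv3 channels, 14 and 1, with Kcnc1 above on the VGAT;NuTRAP side. On the dopamine side were Kcnn3, the small-conductance channel that paces slow firing (108, 126 and 253 and 24.3, 43.1 and 63.6 CPM, 1.74 ± 0.14), and Kcnip3 (2.03 ± 0.13) and Kcnd3 (0.96 ± 0.08), parts of the A-type current. The 9 genes of that current split 3 and 3, with Kcnip1, a partner subunit like Kcnip3, on the GABA side (11.1, 20.6 and 22.7 and 58.9, 73.1 and 103 CPM). Kcnj6, the GIRK2 channel used to label nigral dopamine neurons, gave 0.84 ± 0.25 (adjusted p = 0.0078), but this rested on the first batch (2.05), since the second gave 0.05. Among 13 sodium channel genes 8 were higher in VGAT;NuTRAP and 3 in DAT;NuTRAP. This rested on the second batch, with 9 and 2 (median -0.775), while the first gave 6 and 5 (median -0.0707), and the difference between batches was called for 9 of the 13. Scn1a was at 57.1, 71.1 and 183 and 411, 549 and 608 CPM (-2.56 ± 0.15) and Scn4b, the subunit of resurgent current, at 10.3, 26.5 and 57.2 and 138, 303 and 419 CPM (-3.44 ± 0.21), whereas Fgf13, which holds channels at the initial segment, was at 446, 560.5 and 769 and 125, 178 and 219 CPM (1.69 ± 0.10). Pacemaker channels of the HCN family differed in direction by member. Hcn2 (-1.03 ± 0.07) was higher in VGAT;NuTRAP and Hcn3 (0.55 ± 0.10) in DAT;NuTRAP. Calcium channels gave 5 of 15 each way, but 8 were higher in DAT;NuTRAP and 4 in VGAT;NuTRAP in the first batch (median 0.264) and 3 and 7 in the second (median -0.176), and the difference between batches was called for 10. They included Cacna2d1 (1.14 ± 0.23) toward dopamine and Cacna1i (-2.24 ± 0.15), a T-type channel, toward GABA neurons. The T-type Cacna1g was at 96.8, 115 and 135 and 82.4, 111 and 137 CPM and did not pass (adjusted p = 0.373), with 0.37 in the first and -0.09 in the second batch.

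At the terminal the relative levels of family members differed, and reads of the members named were found in both models. Whether the reads in the lower model came from untagged cells was not tested. Vamp1 and Syt2 were higher in VGAT;NuTRAP, and Vamp2, Syt1, Sv2c, Cplx1 and Cplx2 in DAT;NuTRAP. Syt2, the fast calcium sensor, was at 43.5, 78.6 and 124 CPM in DAT;NuTRAP and 436, 765 and 856 CPM in VGAT;NuTRAP (-3.15 ± 0.15), and Syt1, its slower relative, at 2053, 2211 and 3009 and 1334, 1476 and 1633 CPM (0.68 ± 0.06). Neither overlapped. Cplx1, the coding gene with the highest level per length in DAT;NuTRAP (1216 RPKM), differed by 0.84 ± 0.07 and Vamp2 by 0.69 ± 0.05. Over the 24 SNARE and fusion genes 8 were higher in DAT;NuTRAP and 13 in VGAT;NuTRAP (medians -0.218 and -0.452 in the batches). The cytoskeleton split in the same manner, 11 of 25 each way, with neurofilaments toward GABA neurons. Gap43, Stmn1 (1.39 ± 0.11, with 0.86 in the first and 1.73 in the second batch) and Tubb2b (1.31 ± 0.09), proteins of labile microtubules and growing axons, went toward dopamine neurons. By batch, 7 were higher in DAT;NuTRAP and 10 in VGAT;NuTRAP in the first and 12 and 12 in the second. The difference between batches was called for 17 of the 25. Genes of the perineuronal net and matrix gave 9 of 14 higher in VGAT;NuTRAP and 3 in DAT;NuTRAP, with Tnr, tenascin R, at 28.3, 38.1 and 76 and 109.6, 127 and 148 CPM (-1.62 ± 0.15, with -0.92 in the first and -2.09 in the second batch).

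Growth factor and second messenger genes differed by member as well. Ntf3, neurotrophin 3, was at 17.6, 28.5 and 40.6 CPM in DAT;NuTRAP and 1.68, 3.77 and 5.3 CPM in VGAT;NuTRAP (3.02 ± 0.19), Fgf20 at 10.1, 13.1 and 15.8 and 0.411, 1.88 and 3.61 CPM (2.90 ± 0.25) and Igf1, insulin-like growth factor 1, at 41.6, 56.1 and 66.3 and 12.1, 16 and 19.2 CPM (1.76 ± 0.10). On the other side lay the neuregulin Nrg1 (-2.23 ± 0.25), Fgf9 (-1.36 ± 0.11) and Ntrk3, the receptor for neurotrophin 3 (-1.10 ± 0.10). Of 29 such ligands and receptors 9 were higher in DAT;NuTRAP and 14 in VGAT;NuTRAP. The first batch alone gave 7 and 5 (median 0.0625) and the second 9 and 16 (median -0.418), so the balance turned with the batch. The difference between batches was called for 10 of the 29, against 26.8% of all genes. Of 9 adenylyl cyclases, which make cyclic AMP, 7 were higher in VGAT;NuTRAP, with Adcy2 at 52.9, 73.3 and 83 and 122, 157 and 173 CPM (-1.11 ± 0.08) and Adcy8 differing by -1.54 ± 0.14, and 2 in DAT;NuTRAP (median -0.197 in the first and -1.22 in the second batch). G protein subunits leaned the other way, with 16 of 26 higher in DAT;NuTRAP and 3 in VGAT;NuTRAP, among them Gng4 (1.05 ± 0.07) and Gnai2 (0.94 ± 0.07). Calcium-binding proteins gave 5 of 16 each way, near the share over all genes, with Calb1, Calb2 and Hpcal4 (1.20 ± 0.08) toward dopamine and Pvalb and Ncs1 (-0.69 ± 0.06) toward GABA neurons. Among iron genes, of which 4 of 11 were higher in DAT;NuTRAP and 5 in VGAT;NuTRAP (median -0.0327 in the first and 0.335 in the second batch), the ferritin light chain Ftl1 was at 35.6, 71.4 and 88.8 and 24.7, 27.6 and 42.3 CPM (1.09 ± 0.14) and Steap2, a metalloreductase, at 12.4, 27 and 37 and 99.1, 151 and 193 CPM (-2.57 ± 0.13). Zinc finger proteins, a family of 427 tested, gave 32 higher in DAT;NuTRAP and 166 in VGAT;NuTRAP (median -0.327, with -0.176 and -0.431 in the batches), among them Zbtb20 (1.12 ± 0.08) and Zfp536 (-1.72 ± 0.16).

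Genes of inherited Parkinson disease and the synucleins gave calls in both directions, with 7 of 18 higher in DAT;NuTRAP and 5 in VGAT;NuTRAP (median 0.0659), against 27% and 27.1% of all genes. The first batch alone gave 5 and 2 (median 0.162) and the second 9 and 6 (median 0.243). The difference between batches was called for 12 of the 18, against 26.8% of all genes. Sncg, gamma-synuclein, was at 390.0, 676 and 984 CPM in DAT;NuTRAP and 43.5, 77.4 and 138 CPM in VGAT;NuTRAP (2.98 ± 0.20, with 2.24 in the first and 3.45 in the second batch). Uchl1, an abundant neuronal ubiquitin hydrolase, was at 1262, 2214 and 2497 and 768, 879 and 1042 CPM (1.16 ± 0.10, with 0.66 in the first and 1.47 in the second batch). Both were free of overlap. Sncb, beta-synuclein, was at 751, 1299 and 1491 and 727, 1093 and 1209 CPM and did not pass (0.05 ± 0.09, adjusted p = 0.71). Its batches pointed in opposite directions, with -0.36 in the first and 0.31 in the second. Vps13c, a lipid transfer protein, was higher in VGAT;NuTRAP (-1.52 ± 0.15, with -0.79 in the first and -2.01 in the second batch), and Park7 in DAT;NuTRAP (0.80 ± 0.12, with 0.20 in the first and 1.18 in the second batch). Among antioxidant genes, 16 of 25 were higher in DAT;NuTRAP and 5 in VGAT;NuTRAP. The first batch alone gave 7 and 3 (median 0.115) and the second 16 and 4 (median 0.532), and the difference between batches was called for 14. Prdx1, a peroxiredoxin, was at 105, 138 and 153 and 53.9, 68.4 and 74.2 CPM (1.03 ± 0.08), whereas Sod2, the mitochondrial superoxide dismutase, went the other way at 171, 201 and 217 and 292, 330.5 and 351 CPM (-0.74 ± 0.06).

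Energy and translation genes gave differences that depended on the batch. Over all genes, 16.4% were called higher in DAT;NuTRAP and 16.5% in VGAT;NuTRAP by the first batch alone, and 25.6% and 26.6% by the second. Of 83 cytosolic ribosomal protein genes, 77 were called higher in DAT;NuTRAP and none in VGAT;NuTRAP (median 0.759), but the median was 0.123 in the first batch, with 7 called higher and 2 lower, and 1.16 in the second, with 77 higher and none lower. Complex I of the respiratory chain gave 16 of 37 higher in DAT;NuTRAP and 1 in VGAT;NuTRAP when pooled. Within the first batch 1 was higher and 14 lower (median -0.228), and within the second 32 were higher and 1 lower (median 0.595). Complexes III, IV and V showed the same turn, with 0 of 35 higher and 20 lower in the first batch (median -0.316) and 28 higher and 2 lower in the second (0.523). Proteasome subunits had a median of 0.0424 in the first and 0.578 in the second batch. The difference between batches was itself called for 76 of the ribosomal, 35 of the complex I, 32 of the complex III to V and 28 of the 36 proteasome genes. Ndufv3, a complex I subunit, was called in the same direction in both (0.49 and 1.52), and Ndufs1, a core subunit, was lower in DAT;NuTRAP in both (-0.45 and -0.35). The 7 mitochondrially encoded genes tested, which cytosolic ribosomes do not translate, were all called higher in DAT;NuTRAP when pooled. By the first batch alone 2 were called higher (median 0.898) and by the second 7 (median 2.03). The difference between batches was called for 5 of them. Rpl10a, looked up after its values were seen because it encodes the tagged protein, differed by 0.24 ± 0.07, with -0.01 in the first and 0.41 in the second batch. In the plot of lists by batch the dopamine lists lie close together in both batches and these lists lie apart.

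**Figure D4:**
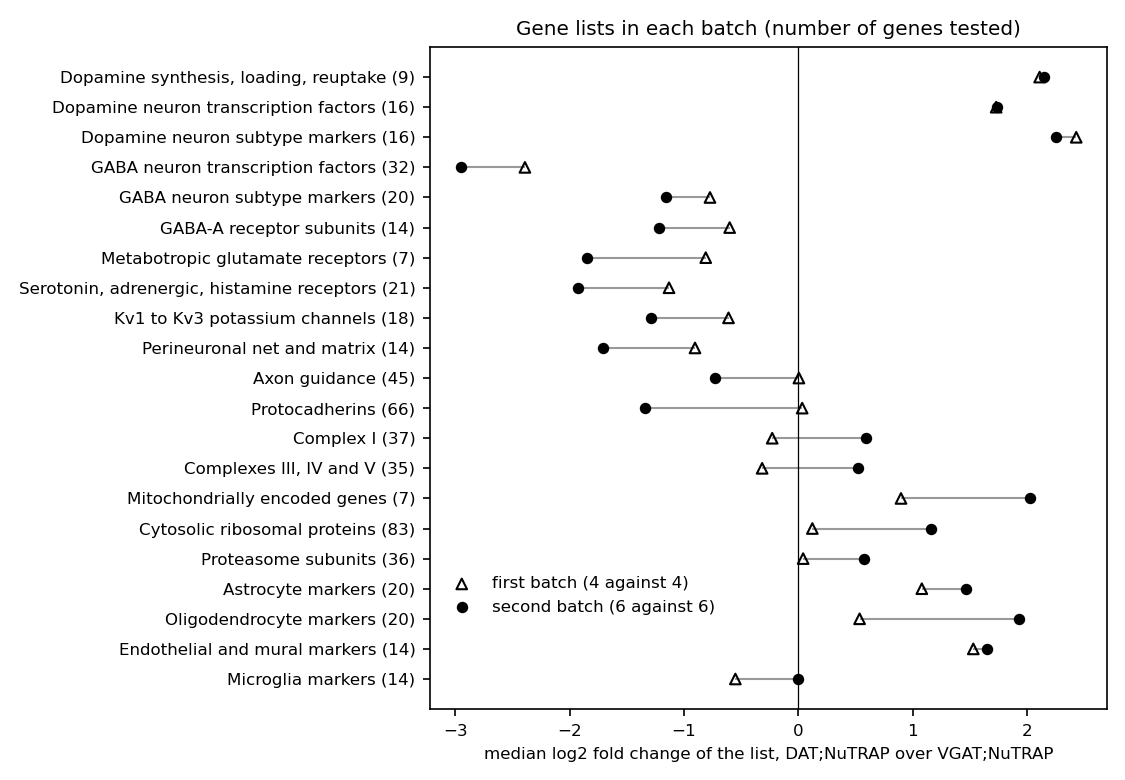
Median log2 difference (DAT;NuTRAP over VGAT;NuTRAP) of gene lists within the first batch (open triangles, 4 libraries against 4) and the second (filled circles, 6 against 6), with the number of genes tested in brackets. Dopamine synthesis sits at 2.11 and 2.15 and GABA neuron transcription factors at -2.39 and -2.95, while complex I moves from -0.228 to 0.595 and cytosolic ribosomal proteins from 0.123 to 1.16.

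The dependence on batch reached well beyond these lists. The cell type difference itself differed between batches, by the interaction test, for 4056 of 15127 genes (26.8%), 1778 more positive and 2278 more negative in the second batch. The most certain of these were Rpl26, which gave 0.06 in the first and 1.46 in the second batch, and on the other side Fam120c, which gave 0.10 and -2.73, and Pja2 (-0.19 and -1.39) and Usp9x (-0.16 and -2.51), both of the ubiquitin system. In Fam120c the first-batch DAT;NuTRAP libraries lay at 49.5 to 61.1 CPM and the second-batch ones at 8.21 to 11.4 CPM, while VGAT;NuTRAP libraries were at 49.5 to 57.6 and 54 to 66.3 CPM. The shift was thus within the DAT;NuTRAP libraries. Gene length moved with it. Genes more positive in the second batch spanned a median of 12.2 kb, those more negative 73.0 kb, and all tested genes 25.8 kb. Genes at least 2-fold higher spanned 34.8 kb in DAT;NuTRAP and 33.0 kb in VGAT;NuTRAP by the first batch alone, and 16.8 kb and 68.2 kb by the second alone. Protocadherins, a family of long genes, had a median difference of 0.0341 in the first and -1.34 in the second batch, and axon guidance genes 0.00551 and -0.728. The part of gene length, RNA quality or pulldown yield in this was not tested. Of the genes named here, 30 of 162 with a value in both batches differed by more than 1 on the log2 scale between the batches, Gad2 among the label genes (-2.69 and -3.87). Of the 3645 genes called in both batches, 253 were called in opposite directions.

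**Figure D5:**
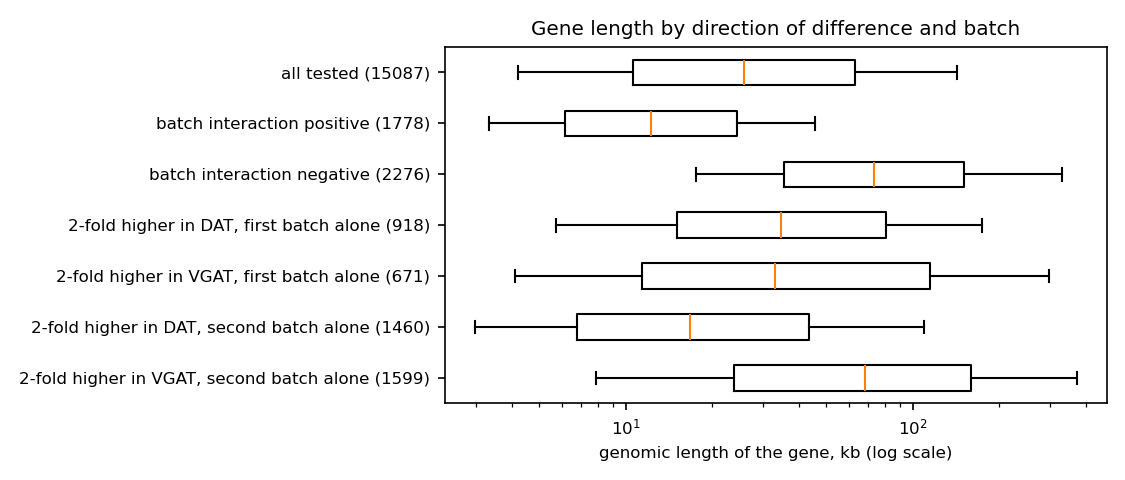
Genomic length (kb on a log axis) of all tested genes, of genes whose cell type difference was more positive or more negative in the second batch, and of genes at least 2-fold higher in either model by each batch alone, with the number of genes that have a length in brackets. Lines in the boxes are medians, boxes span the 25th to 75th and whiskers the 10th to 90th percentiles, and the medians of the 2-fold genes are 34.8 and 33.0 kb in the first batch and 16.8 and 68.2 kb in the second.

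Markers of astrocytes, oligodendrocytes and vessels were present in both models and mostly higher in DAT;NuTRAP. Of 20 astrocyte markers 19 were called higher in DAT;NuTRAP, of 20 oligodendrocyte markers 17, and of 14 endothelial and mural markers tested 13. Their summed levels in DAT;NuTRAP and VGAT;NuTRAP libraries were 1048, 1596 and 2313 and 971, 1082 and 1264 CPM for astrocytes, 585, 1357 and 2653 and 346, 464 and 599.7 CPM for oligodendrocytes, and 95.6, 183 and 380.2 and 58.7, 68.2 and 94.9 CPM for vessels. The oligodendrocyte sum was 585 to 859 CPM in first-batch and 1253 to 2653 CPM in second-batch DAT;NuTRAP libraries. Of the 20 oligodendrocyte markers, 3 were called higher in DAT;NuTRAP by the first batch alone (median 0.536) and 17 by the second (median 1.93). The difference between batches was called for 11 of them. Slc1a2, the glutamate transporter of astrocytes, was at 375, 626 and 887 and 93.2, 250.1 and 309 CPM (1.52 ± 0.09) and Cldn5, a tight junction protein of vessels, at 7.15, 24 and 53.2 and 3.45, 5.68 and 8.28 CPM (2.06 ± 0.23). Aldoc, the only astrocyte marker higher in VGAT;NuTRAP (-0.62 ± 0.10), is also made by some neurons. None of 14 microglia markers was called by edgeR, with 1 at an unadjusted p below 0.05, and their sums overlapped (47.5, 58.9 and 89.3 against 21.9, 46.8 and 152 CPM). Oligodendrocyte precursor markers summed to less in DAT;NuTRAP (54.8, 69.5 and 84.1 CPM) than in VGAT;NuTRAP (118, 142 and 185 CPM), although 4 of 8 were called higher and 2 lower. The 2 called lower, Lhfpl3 (means of 38.9 and 101 CPM) and C1ql1 (11.9 and 36.9 CPM), held most of the sum. The median log2 over the 8 was 1.31, so the sum does not speak for the list. The part of these cells in the dopamine-side counts was not tested, and Slc6a11, Nkx6-2 and the class I histocompatibility genes (9 of 10 higher in DAT;NuTRAP), which glia or vessels also make, stand beside these values. Markers of acetylcholine and noradrenaline neurons summed to at most 46.9 CPM and Hox genes of the hindbrain and spinal cord to at most 6.06 CPM. Phox2a, a noradrenaline factor, had no read in any library.

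Around the genes that drive Cre, the nearest neighbours were looked at because a knock-in can alter them. Within 5 Mb of Slc6a3 (chr13:73684866-73726801), 57 genes were tested, and 14 were higher in DAT;NuTRAP and 18 in VGAT;NuTRAP, 56.1% in all against 54.1% over the genome. Clptm1l, 25.3 kb away on the side of higher coordinates, was at 297, 345 and 417 CPM in DAT;NuTRAP and 96.9, 115 and 134 CPM in VGAT;NuTRAP, and Lpcat1, 20.3 kb away on the other side, at 54.4, 74 and 89.5 and 36.5, 38.9 and 48.6 CPM (0.85 ± 0.08). Both neighbours were thus on the side of Slc6a3 itself, without overlap. Within 5 Mb of Slc32a1 (chr2:158452605-158464883), 35 of 100 genes were higher in DAT;NuTRAP and 27 in VGAT;NuTRAP (62.0%). Actr5, the nearest gene on the side of higher coordinates at 1.92 kb, did not pass (-0.23 ± 0.18, adjusted p = 0.274), and Ppp1r16b, 42.4 kb away on that side, differed by -0.90 ± 0.10. Both were named after their values were seen. Ralgapb, 111 kb away on the other side, was higher in VGAT;NuTRAP (-0.78 ± 0.07), and Nnat, 1050 kb away, in DAT;NuTRAP. Gm14204, a gene of unknown role on the opposite strand that overlaps the start of Slc32a1 and was named after its values were seen, differed by -3.08 ± 0.19, and its reads are told apart from those of Slc32a1 only if counting used the strand. Effects of the inserted cassette and of cell type on these genes cannot be told apart.

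No gene was called for a cell type difference that depended on sex or age. The cell type difference differed between males and females for 0 of 15127 genes (0%) by edgeR, with 419 at an unadjusted p below 0.05, and limma-voom also called 0. With the 17 old libraries added, it differed between ages for 0 of 16898 genes (0%) by edgeR, with 467 at an unadjusted p below 0.05 and 0 by limma-voom. Among the age terms, Olfml2b, an extracellular matrix protein, had the smallest adjusted p at 0.206. Of the 2420 young 2-fold genes tested in old mice, 2408 had the same direction there and 2039 were called, against 48.9% of all genes called in old mice, with a median absolute log2 of 1.45 in old against 1.54 in young mice. A p that misses the threshold does not show equal differences, and the males number 5 and 4.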

How the data were processed

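The authors deposited raw read counts per gene, one table per model, and each table here held 57180 genes in the same order. Per the paper's methods and the submitters' processing notes, poly-A RNA of the anti-GFP fraction was made into directional libraries and sequenced as paired ends, and reads were trimmed, aligned with STAR 2.7.10b to mm39 and counted with featureCounts. The annotation, the featureCounts version and its strand setting are not given in the sources used here. If strand was not used, reads of overlapping genes cannot be told apart. The study's own removal of low counts and of astrocyte and microglia genes and its batch correction were not applied here, so glial genes stay in the tables.

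The 2 tables were joined by gene identifier (56620 matched GENCODE M39), and the 20 young libraries were normalised together by TMM. Genes passing filterByExpr (minimum count 10, by cell type) were tested with edgeR 4.0.16 (quasi-likelihood test, R 4.3.3) with batch as a covariate, and p-values were adjusted by Benjamini-Hochberg over all 15127 genes. The same test within each batch, and with an interaction of cell type with batch, sex or age, gave the other values. Library totals ran from 17047101 to 38235015 counts, and the biological coefficient of variation was 0.342. No pair of libraries of one group agreed within sampling noise (lowest chi-square per degree of freedom 5.217 over 41 pairs), so none was counted as a repeat. The scripts were tested on simulated data. Alternatives were limma 3.58.1, DESeq2 1.42.0, other scalings, filters and covariates, and leaving out each library.

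The members, gene lists and naming rules were chosen with earlier results of these data known. Named genes were the label genes, the 20 with the smallest p and at least 2-fold in each direction, the 10 with the widest difference at a mean of at least 5 CPM, and up to 4 per direction and 2 that did not pass from each list described, with the cell type markers Nr4a2 and Pitx3. Of genes at the ends of interactions and near the Cre loci, and of other cell types, up to 5 and 4 were eligible. Some genes selected by these rules are not reported here.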

Additional observations from a re-analysis of the deposited data

Results flagged for a closer look

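Within each model, a library was looked at again where its gap to the nearest of the other libraries took up more of the range of log2(CPM + 1) than Dixon's 95% limit for 10 samples allows. Among 326 groups of values (163 named genes in 2 models) 25 passed, where chance alone gives about 1 in 20. Most came from 3 libraries.

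Young female VGAT;NuTRAP 2 was the lowest VGAT;NuTRAP library for genes of dopamine neurons, with 5.83 CPM for Cck (next 9.7), 49 CPM for Drd2 (next 85.3), 7.28 CPM for Gch1 (next 12.7), 9.08 CPM for Kcnj6 (next 17.6), 24.3 CPM for Kcnn3 (next 39.5), 18.7 CPM for Ntsr1 (next 54.3), 41.3 CPM for Satb1 (next 58.4) and 71.9 CPM for Tpd52 (next 80.0). Young male DAT;NuTRAP 2 was the lowest DAT;NuTRAP library with 0.858 CPM for Crh (next 2.38), 152 CPM for En1 (next 279), 16.3 CPM for Grp (next 39), 12.6 CPM for Lpl (next 40.6), 2.63 CPM for Pitx3 (next 19.47) and 544 CPM for Slc10a4 (next 664). Young male VGAT;NuTRAP 1 was lowest with 30.3 CPM for Lhx1 (next 35.4), 229 CPM for Slc32a1 (next 425) and 727 CPM for Sncb (next 1069), and highest with 873 CPM for Aldoc (next 707) and 151 CPM for Rpl26 (next 131).

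Single values stood apart elsewhere. Young male DAT;NuTRAP 3 was lowest with 2113 CPM for Aldh1a1 (next 2662), young female DAT;NuTRAP 4 with 71.4 CPM for Kcnc1 (next 112), young female DAT;NuTRAP 1 with 569.7 CPM for Pea15a (next 621), young female DAT;NuTRAP 5 with 1.04 CPM for Nrg1 (next 5.19) and young male VGAT;NuTRAP 4 with 27.5 CPM for Nrg1 (next 36.9). Young female DAT;NuTRAP 2 was highest with 4020 CPM for Ret (next 3044). No named gene changed direction or lost its call when any 1 library was left out.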

How the results depend on the processing

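The label genes kept their direction and their call under every alternative, and 331 of 338 values for them and for the counts of genes stayed within the limits set. Without the filter on low counts, 2400 genes were at least 2-fold higher in VGAT;NuTRAP and the median over all genes was -0.164. The first batch alone called 2448 genes higher in DAT;NuTRAP and 2461 in VGAT;NuTRAP, with 687 of at least 2-fold in VGAT;NuTRAP, and females alone called 2714 higher in DAT;NuTRAP, in fits with fewer samples. A test against a 2-fold difference left 494 and 496 genes. Leaving out 1 library at a time gave 3800 to 4145 genes higher in DAT;NuTRAP and 3897 to 4208 in VGAT;NuTRAP, and 1231 to 1361 and 1078 to 1215 of at least 2-fold. It gave 2.03 to 2.22 for Slc6a3, 3.29 to 3.47 for Th, -3.93 to -3.76 for Gad1, -3.47 to -3.29 for Gad2 and -2.20 to -2.09 for Slc32a1. The batch interaction called 4429 genes without young female DAT;NuTRAP 5, and the sex and age interactions 0, in alternatives chosen after seeing the data.

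Libraries of both models with the same number within a sex were not treated as pairs. Their deviations from the fit of batch and cell type correlated at -0.339 to 0.19 (median -0.138, 9 pairs). Such correlations over all genes cannot show whether these mice shared a litter or a collection day. With the replicate block 3053 and 3502 genes were called and Slc6a3 gave 2.18, Th 3.34, Gad1 -3.85, Gad2 -3.40 and Slc32a1 -2.13.

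In the first batch alone Fam120c (0.10) and Rpl10a (-0.014) turned direction without a call, and Cacna2d1, Chrna2, Dlx6, Ftl1, Hcn3, Nkx6-2, Park7, Pitx3, Rpl26, Sst and Usp9x did not pass. In the second alone Crh and Kcnj6 did not. Among genes that did not pass when pooled, Cacna1g (0.37) passed in the first batch alone and Sncb (0.31) in the second alone. Dlx2 and Kcnj6 did not pass in females alone, nor Crh, Kcnj6 and Rpl10a in males alone. For medians of gene lists, 1389 values under the alternatives stayed within the spread of the list's mean level among libraries of a model, and 80 moved beyond it. Iron handling had a median of 0.257 without young female DAT;NuTRAP 5, against 0.481. Depth was not the limit for abundant genes, but the second-batch DAT;NuTRAP libraries with most genes at 0 limit what can be said of rare ones.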
